A study of Mus musculus with 16 samples.

Results

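Levels of 10 genes of epithelial defence were examined in the mouse ileum, with the genes chosen by symbol from a count table of 46078 genes. They are the oxidase genes Duox2, Duoxa2 and Nox1, the acute-phase serum amyloid A genes Saa1, Saa2 and Saa3, the iron-withholding genes Lcn2 and Ltf, the adaptor gene Card9 and the cytokine gene Il18. All 10 were in the table, and all 10 were among the 14822 genes that passed the filter on low counts in the fit of all 16 libraries.

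RNA of ileum mucosa was sequenced from 16 C57Bl/6 mice of 2 genotypes, 8 with a knockout of Slfn3 (Slfn3KO) and 8 wild type (WT), and in each genotype 4 carried the label male and 4 the label female. Slfn3 belongs to the Schlafen family of growth regulators, and the study asked what its loss changes in the intestine and whether the sexes differ. The labels give an age of 8 weeks for every mouse, whereas the methods of the study give an older range, and no treatment is labelled. The Slfn3KO mice lacked the gene in the whole body, were typed from tail DNA and were compared with WT littermates. Each library is 1 mouse, and a library is named here by its labelled sex, genotype and number.

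The mucosa lines the gut lumen with a single sheet of epithelial cells above connective tissue that holds lymphocytes, macrophages and lymphoid follicles. DUOX2 and NOX1 are membrane enzymes of that epithelium that pass electrons from NADPH to oxygen, DUOX2 yielding hydrogen peroxide and NOX1 superoxide, and DUOXA2 is the partner that DUOX2 needs to mature and reach the cell surface. Serum amyloid A proteins are lipid-binding proteins of the acute-phase response, known in the ileum as products of epithelium in contact with adherent bacteria and under the influence of interleukin-22. Lipocalin-2 binds bacterial siderophores, lactoferrin binds iron itself, CARD9 relays signals from fungal pattern receptors in myeloid cells, and interleukin-18 is a cytokine stored as a precursor in the epithelium and released after cleavage by caspase-1.

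Totals per library were 20823279 to 30813117 counts, and a floor of 3 counts equalled 0.10 to 0.151 CPM, the counts scaled to a common library size, which covers counting error only. The targeted gene, Slfn3, had 0 to 2 counts in the 8 Slfn3KO libraries and 0 to 19 counts, median 3, in the 8 WT libraries, with 1 WT library at 0. The highest counts, 7, 13 and 19, were in female WT 3, female WT 4 and male WT 3. The other WT libraries had 0 to 4 counts, which overlap those of the Slfn3KO libraries. In 4 WT libraries, those numbered 3 and 4 of both labelled sexes, the sex transcripts went against the sex label. The bracketed numbers in the sample titles of these 4 are consecutive and the highest of the series. What those numbers stand for is not given in the labels. The same 4 WT libraries held more RNA of B cell and follicle markers than any other library, with summed levels of 200.2 to 975 CPM over 10 markers against 2.56 to 144 CPM in the other 12 libraries. The genotype comparisons of the 10 genes are therefore given with and without these 4. The epithelial markers were present in every library, at 13083 to 24819 CPM summed over 9 genes.

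The genes lie in 2 tight neighbourhoods and several single sites of the mm10 genome. Duox2 (chr2:122279247-122298165, minus strand) and Duoxa2 (chr2:122298900-122302885, plus strand) stand back to back. GENCODE M21 places the start of Duox2 at 122298449, 451 bases from that of Duoxa2, and the coordinates printed here place it farther away. Saa1 (chr7:46740501-46742980, minus strand) and Saa2 (chr7:46751833-46754314, plus strand) also point away from each other, with 8810 bases between their starts in GENCODE M21. Saa3 (chr7:46711998-46715676, minus strand) lies beside them. Lcn2 (chr2:32384633-32388252) and Card9 (chr2:26352176-26360918) share chromosome 2 on the minus strand, Il18 (chr9:50575273-50581837) and Ltf (chr9:111019271-111042767) share chromosome 9 on the plus strand, and Nox1 (chrX:134086421-134221956) is on the minus strand of the X chromosome. The span that GENCODE gives to Nox1 overlaps Xkrx on the same strand.

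All 10 genes were found in the RefSeq promoter table of build GRCm38.p6, and the 250 bases before the start that it gives were read. Those starts can differ from the coordinates above. The windows of Nox1 (chrX:134111855-134112104) and Lcn2 (chr2:32387740-32387989) lie inside the spans given above. That of Il18 (chr9:50554450-50554699) lies outside its span, well before the start printed above. The stretch before Duoxa2 is shown because it lies in the gap between Duoxa2 and Duox2, whose levels moved together. The stretches of the serum amyloid A genes are shown because Saa1 and Saa2 are nearly identical there and differed widely in level. Capitals mark matches, on either strand, to 5 searched motifs, namely a TATA box (TATAAA), a STAT motif (TTCNNNGAA), an NF-kB motif (GGGNNTTCC), a C/EBP motif (TTGCNNAA) and an interferon response motif (GAAANNGAA). None of the marked matches overlap. The stretches are chr2:122298650-122298899 for Duoxa2, chr7:46742981-46743230 for Saa1, chr7:46751583-46751832 for Saa2 and chr7:46715677-46715926 for Saa3, each printed 5′ to 3′ on the strand of its gene.
Duoxa2: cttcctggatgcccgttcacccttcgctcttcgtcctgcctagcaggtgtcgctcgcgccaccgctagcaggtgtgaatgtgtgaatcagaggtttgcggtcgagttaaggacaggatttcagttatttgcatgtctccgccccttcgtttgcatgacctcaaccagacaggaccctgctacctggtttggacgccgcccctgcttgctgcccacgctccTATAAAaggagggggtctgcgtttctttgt
Saa1: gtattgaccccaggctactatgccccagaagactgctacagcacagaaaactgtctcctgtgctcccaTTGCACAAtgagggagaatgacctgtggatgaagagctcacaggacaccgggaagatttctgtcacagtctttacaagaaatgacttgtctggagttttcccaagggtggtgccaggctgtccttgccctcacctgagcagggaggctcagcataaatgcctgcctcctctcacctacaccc
Saa2: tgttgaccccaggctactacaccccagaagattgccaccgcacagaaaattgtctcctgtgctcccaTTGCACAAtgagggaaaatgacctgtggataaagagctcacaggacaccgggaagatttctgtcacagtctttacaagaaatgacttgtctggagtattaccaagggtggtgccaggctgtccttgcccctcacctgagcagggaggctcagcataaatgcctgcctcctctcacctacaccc
Saa3: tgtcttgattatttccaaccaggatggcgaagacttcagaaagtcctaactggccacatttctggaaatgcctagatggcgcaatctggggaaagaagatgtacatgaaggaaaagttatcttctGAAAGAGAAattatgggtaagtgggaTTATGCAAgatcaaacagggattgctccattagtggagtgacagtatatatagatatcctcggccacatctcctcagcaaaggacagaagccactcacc

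The C/EBP motif was found before 5 of the 10 genes, Saa1, Saa2, Saa3, Lcn2 and Ltf, and in 9.56% of all 32851 promoters of that length. In Saa1 and Saa2 it read TTGCACAA, in Saa3 TTATGCAA, in Lcn2 TTGCTCAA and in Ltf TTGGGCAA. The TATA box letters were found before Duoxa2 and Il18 and in 12.4% of all promoters, the NF-kB letters before Nox1 and in 4.98%, and the interferon response letters before Saa3 and in 7.13%. The STAT letters were found before none of the 10 genes and in 7.02% of all promoters. No searched motif was found in these windows of Duox2 and Card9. The Saa1 and Saa2 stretches were 94.8% identical, with a longest identical run of 65 bases, and Saa1 and Saa3 were 48.5% identical. Such matches describe letters in a window and do not show a bound site.

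Levels of the 10 genes spanned a wide range when set per kilobase of exon. Duoxa2, Duox2 and Saa1 stood at the top, with medians over the 16 libraries of 145, 103 and 101 CPM per kilobase. Il18 followed at 39.7 and Card9 at 14.3 CPM per kilobase. Saa3, at 2.05, Nox1, at 0.846, Ltf, at 0.417, Lcn2, at 0.246, and Saa2, at 0.169 CPM per kilobase, made up the low end. The first 3 of this order did not differ beyond their spread, with a mean of 133 ± 69.4 CPM per kilobase for Duoxa2 and 101 ± 47.3 for Duox2 (SD, n = 16), and Saa1, at 279 ± 335, had the highest mean and the widest spread. Low counts limit what can be said of Saa2, which had 0 to 37 counts per library and 108 in all, and of Lcn2, which had 1 to 60 counts.

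**Figure D1:**
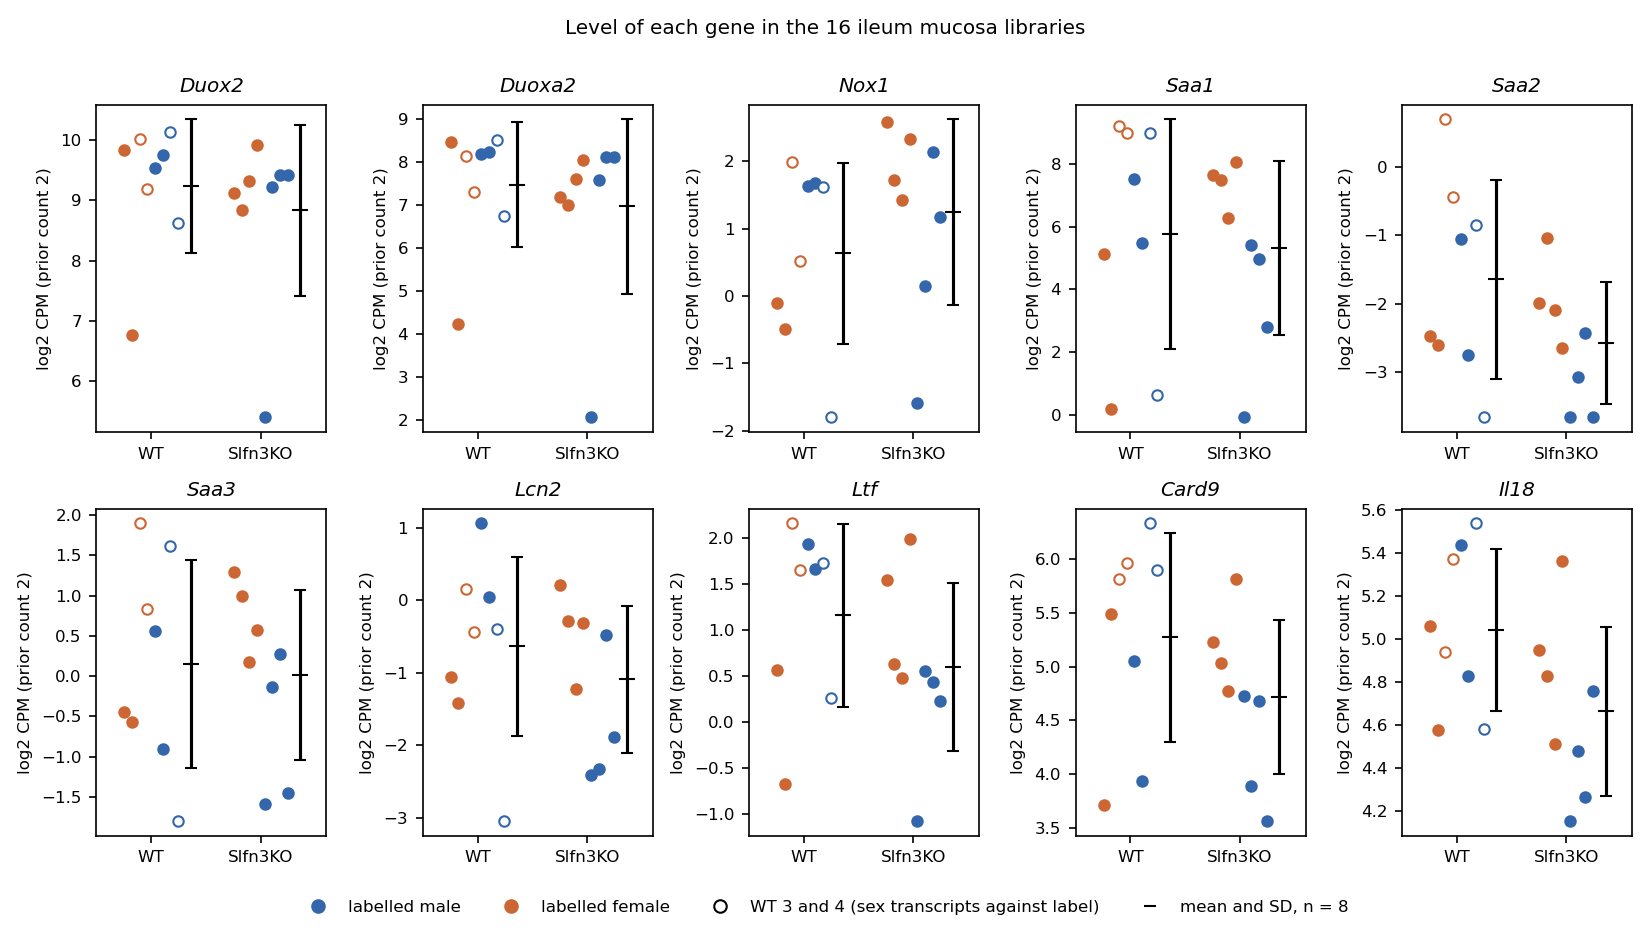
Level of each of the 10 genes in log2 CPM (vertical axis, prior count 2) in 8 WT and 8 Slfn3KO libraries, 1 point per mouse, coloured by labelled sex, with the mean and SD at the right of each genotype and open points for the 4 WT libraries whose sex transcripts went against the label. The genotypes overlap for every gene, and single libraries lie far below the rest for Duox2, Duoxa2, Nox1 and Saa1.

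Pooled over both labelled sexes, none of the 10 genes differed between Slfn3KO and WT mice at the threshold of an adjusted p under 0.05 and a 1.5-fold change in edgeR's quasi-likelihood test, and 0 of all 14822 genes tested (0%) did. The smallest adjusted p of any gene was 0.327. At an unadjusted p under 0.05, Saa2 and Il18 were lower in Slfn3KO mice, which is 2 of 10 genes beside 7.10% of all tested genes that were lower at that level. No member was higher at that level, beside 4.84% of all tested genes. DESeq2 called 54 genes (0.364% of those tested) and 0 of the 10. The fitted change was below 0 for 9 of the 10 genes and above 0 for Nox1, beside 50.7% of all tested genes below 0. The median log2 fold change was -0.59 over the 10 genes and -0.0037 over all tested genes. Levels of the members other than Card9 were correlated across libraries (median r = 0.707), so their directions are not independent. In bulk RNA, fewer cells of a type and less RNA per cell cannot be told apart.

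Among the oxidases, Duox2 ranged from 109 CPM in the lowest WT library through a median of 800 to 1122 CPM in the highest. In the Slfn3KO libraries Duox2 ranged from 42.4 CPM through a median of 618 to 966 CPM. The low ends were single libraries, female WT 2 and male Slfn3KO 1, and the other 14 libraries lay between 395 and 1122 CPM with the genotypes mixed. The fitted log2 fold change of Duox2 was -0.32 ± 0.478 (SE) with an edgeR adjusted p of 0.788, and -0.19 ± 0.634 without WT 3 and 4.

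Duoxa2, which encodes the maturation factor, repeated this picture. Its level was 18.8, 289 and 366 CPM as the lowest, median and highest WT library, and 4.11, 195 and 280 CPM in the Slfn3KO libraries. Again female WT 2 and male Slfn3KO 1 were at the bottom and male WT 3 at the top. Its log2 fold change was -0.32 ± 0.596 (edgeR adjusted p = 0.831), and -0.36 ± 0.792 without WT 3 and 4. Duox2 exceeded Duoxa2 by a median ratio of 3.43 in CPM, a scale that leaves the greater exon length of Duox2 uncorrected. Per kilobase of exon the median ratio was 0.852, from 0.605 in male Slfn3KO 3 to 2.57 in male Slfn3KO 1. In CPM these 2 libraries had ratios of 2.43 and 10.3, so that in the library with least oxidase RNA the partner was lower still.

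Nox1, the superoxide-forming oxidase best known from the colon, was expressed at a low level. It ranged over 0.208, 2.17 and 3.89 CPM (lowest, median and highest) in WT and over 0.252, 2.92 and 5.89 CPM in Slfn3KO libraries. Its 3 lowest libraries were male WT 4, male Slfn3KO 1 and female WT 2, and its 3 highest were Slfn3KO. The log2 fold change was 0.52 ± 0.594 with an edgeR adjusted p of 0.732, and 0.58 ± 0.737 without WT 3 and 4. Per kilobase, Duox2 was at a median of 132 times the level of Nox1.

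Saa1 varied more than any other of the 10 genes and more than 99.9% of all tested genes by the SD of log2 CPM, which was 3.15. In WT it was 1.06 CPM in the lowest library, 115 at the median and 594 in the highest. In Slfn3KO it was 0.865, 60.4 and 270 CPM. The spread across all 16 libraries was 687-fold, and 3 libraries, male Slfn3KO 1, female WT 2 and male WT 4, stood below 1.5 CPM. The 3 highest were female WT 3, male WT 3 and female WT 4, all among the libraries whose sex transcripts went against the label.

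The log2 fold change of Saa1 was -1.91 ± 1.15 with an edgeR adjusted p of 0.532, which became -0.64 ± 1.5 without WT 3 and 4. The difference in mean log2 CPM between genotypes was -0.45 (exact permutation p = 0.783, two-sided, 12870 labellings). That difference took no account of labelled sex, and the fit without labelled sex as covariate gave Saa1 a log2 fold change of -1.22. With the covariate kept and male WT 3 alone left out, it was -1.23. The size of the Saa1 difference thus varied with the libraries, the covariate and the scale, and their parts were not separated.

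Saa2 was near its floor. WT libraries held 0, 0.250 and 1.53 CPM (lowest, median, highest) and Slfn3KO libraries 0, 0.0931 and 0.409 CPM. No count was found in male WT 4, male Slfn3KO 1 and male Slfn3KO 4, and the highest level was in female WT 3. Its log2 fold change was -1.87 ± 0.746 (unadjusted p = 0.0234, edgeR adjusted p = 0.337), whereas the difference in mean log2 CPM was -0.93 (exact permutation p = 0.149), and the gene did not pass the filter without WT 3 and 4.

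Of the 50-base stretches in protein-coding transcripts, 14.8% of those of Saa1 also occur in Saa2 or Saa3 transcripts and 11.8% of those of Saa2 occur in Saa1. Reads of 50 bases from such stretches cannot be placed on 1 of the genes. Set against the stretches that no other gene holds, Saa1 had 144 counts per stretch over all libraries and Saa2 had 0.185, a gap far beyond the shared portion. Thus the promoters printed above, alike at 94.8% of positions, belonged to genes at opposite ends of the level order.

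Saa3, the third serum amyloid A gene, was also low. Its lowest, median and highest levels were 0.208, 1.03 and 3.65 CPM in WT and 0.252, 1.09 and 2.37 CPM in Slfn3KO libraries. The medians nearly coincided, and the extremes were male WT 4 and female WT 3, both WT. A log2 fold change of -0.47 ± 0.533 (edgeR adjusted p = 0.729) became 0.34 ± 0.533 without WT 3 and 4, so its direction turned with those 4 libraries. Without male WT 3 alone it was -0.05.

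Lcn2, which encodes the siderophore-binding lipocalin-2, had 0.0416, 0.669 and 2.0 CPM (lowest, median, highest) in WT and 0.108, 0.493 and 1.08 CPM in Slfn3KO libraries. Male WT 4 and male WT 1 marked the extremes, so WT mice spanned the whole range and enclosed the Slfn3KO values. The log2 fold change was -0.72 ± 0.592 with an edgeR adjusted p of 0.644, and -1.01 ± 0.698 without WT 3 and 4. Without male WT 1 alone it was -0.35.

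Ltf, the lactoferrin gene, had 0.550, 3.08 and 4.39 CPM in WT and 0.397, 1.35 and 3.89 CPM in Slfn3KO libraries. The medians differed more than those of the other iron-withholding gene, yet both genotypes reached from under 1 CPM to near 4 CPM. Its log2 fold change was -0.70 ± 0.446 (edgeR adjusted p = 0.556), and -0.48 ± 0.612 without WT 3 and 4. Lipocalin-2 and lactoferrin are also stored in neutrophil granules. The 10 genes of the neutrophil list summed to 0.208 to 2.38 CPM, a scale like that of Lcn2 and Ltf themselves. Elane, Camp and Ngp were at 0 in all 16 libraries. Csf3r, the 1 gene of the list that passed the filter, had medians of 0.496 CPM in WT and 0.497 CPM in Slfn3KO libraries. The cell source of Lcn2 and Ltf was not tested.

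Card9, the adaptor gene, had the higher median in WT, with overlap of the genotypes. WT libraries held 13, 50.5 and 80.4 CPM (lowest, median, highest) and Slfn3KO libraries 11.7, 26.8 and 56.3 CPM. The 4 highest of all 16 were the WT libraries numbered 3 and 4 of both labelled sexes, while female WT 1 and male WT 2 lay among the 4 lowest. The log2 fold change was -0.73 ± 0.371 (unadjusted p = 0.0680, edgeR adjusted p = 0.451), and it was 0.04 ± 0.363 without those 4 WT libraries.

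Il18 was the steadiest of the 10 genes, with a spread of 2.61-fold across the 16 libraries. It had 23.8, 31.9 and 46.4 CPM (lowest, median, highest) in WT and 17.7, 24.9 and 41.1 CPM in Slfn3KO libraries. The 4 lowest libraries were Slfn3KO and the 3 highest were WT, with overlap between. Its log2 fold change was -0.39 ± 0.183 (unadjusted p = 0.0473, edgeR adjusted p = 0.414), and the difference in mean log2 CPM was -0.38 with an exact permutation p of 0.0729. Without WT 3 and 4 the log2 fold change was -0.33 ± 0.212, of nearly the same size.

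Without WT 3 and 4, 0 of the 9 members that passed the filter had an unadjusted p under 0.05, beside 5.80% of the 15093 genes tested in the 12 remaining libraries, and 0 genes were called. Of these 9, 6 were lower and 3 were higher in Slfn3KO mice, beside 47.2% of all tested genes lower.

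**Figure D2:**
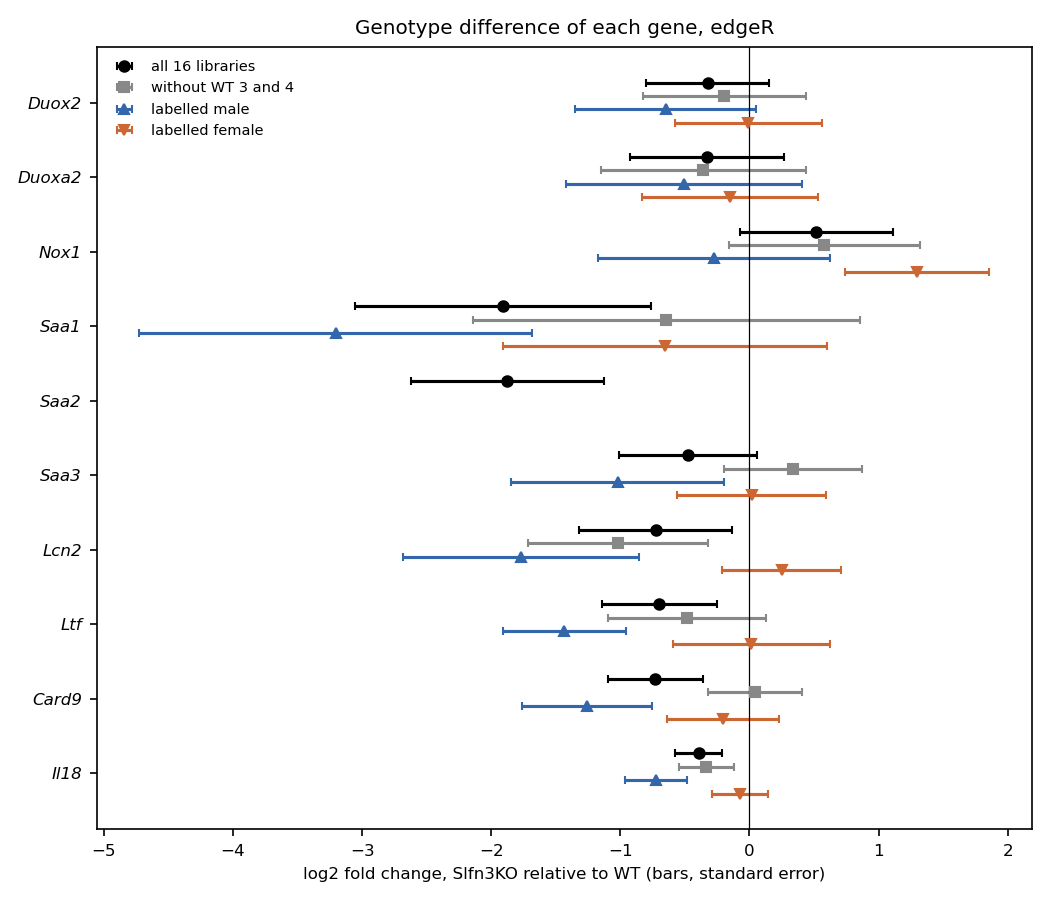
Log2 fold change of Slfn3KO relative to WT (horizontal axis) with its standard error for each of the 10 genes, in all 16 libraries, without WT 3 and 4, and in the libraries of each labelled sex. In all 16 libraries 9 genes lie below 0 and Nox1 above it, Saa3 and Card9 cross 0 without WT 3 and 4, and Saa2 was tested in the first fit only.

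The study also asked whether males and females responded differently, and this comparison is limited by the 4 WT libraries with sex transcripts against the label. These are numbers 3 and 4 of each labelled WT group, and no fit by the sex of the transcripts is given here. In the 8 libraries labelled male, all 9 tested members were lower in Slfn3KO mice, beside 50.4% of all tested genes. Ltf, Card9 and Il18 had an unadjusted p under 0.05, beside 1.98% of the 14124 tested genes that were lower at that level. Ltf had a mean of 1.04 ± 0.444 CPM in male Slfn3KO against 2.79 ± 1.15 CPM in male WT libraries (SD, n = 4). Its log2 fold change in the libraries labelled male was -1.43 ± 0.477. That of Card9 was -1.26 ± 0.503 and that of Il18 -0.72 ± 0.238. The edgeR adjusted p was 0.925 for each of these 3 genes. Saa1 had the most negative fitted change of the members in the libraries labelled male, at -3.20 ± 1.52. Its means were 20.5 ± 19.9 CPM in Slfn3KO and 186 ± 232 CPM in WT libraries (SD, n = 4).

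Without male WT 3 and 4, which leaves 2 male WT libraries, all 9 tested members were again lower, beside 46.0% of all tested genes. Lcn2, Ltf and Il18 had an unadjusted p under 0.05, beside 3.76% of the 14551 tested genes that were lower at that level. Their log2 fold changes were -2.43 ± 0.688 for Lcn2, -1.71 ± 0.446 for Ltf and -0.73 ± 0.204 for Il18, each with an edgeR adjusted p of 0.644. Card9 was at -0.28 ± 0.444 and Saa1 at -2.46 ± 1.25 in that fit.

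In the 8 libraries labelled female, 5 of the 9 tested members were lower and 4 higher, beside 51.1% of all tested genes lower. Nox1 was the 1 member with an unadjusted p under 0.05 and was higher in Slfn3KO mice, beside 8.58% of the 14064 tested genes that were higher at that level. Its means were 4.18 ± 1.52 CPM in female Slfn3KO and 1.69 ± 1.5 CPM in female WT libraries (SD, n = 4), and its log2 fold change was 1.30 ± 0.561 with an edgeR adjusted p of 0.289. Duox2, at -0.01 ± 0.571, Ltf, at 0.01 ± 0.609, and Saa3, at 0.02 ± 0.574, had fitted changes near 0 with wide errors, and Saa1 was at -0.65 ± 1.25.

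Without female WT 3 and 4, which leaves female WT 1 and 2, 8 of the 9 tested members were higher and 1 was lower. Of all tested genes, 49.6% were lower. Nox1, Saa1 and Saa3 had an unadjusted p under 0.05, beside 12.1% of the 14634 tested genes that were higher at that level. Nox1 had a log2 fold change of 2.47 ± 0.449 (edgeR adjusted p = 0.109), Saa1 one of 3.32 ± 1.22 (edgeR adjusted p = 0.175) and Saa3 one of 1.41 ± 0.420 (edgeR adjusted p = 0.144). The direction of Saa1 in the libraries labelled female thus turned with the 2 omitted libraries, which held its highest and third-highest levels of all 16.

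Tested directly as labelled female minus labelled male, the genotype difference was above 0 for all 10 genes, beside 49.3% of all tested genes below 0. Of the 10, 0 had an unadjusted p under 0.05, beside 11.1% of all tested genes. The smallest adjusted p among the 10 was 0.461, for Il18. Without WT 3 and 4, which leaves 2 WT libraries per labelled sex, 6 of 9 members had an unadjusted p under 0.05, beside 26.9% of the 15093 tested genes. They were Nox1, Saa1, Saa3, Lcn2, Ltf and Il18. Ltf, with a difference of 3.01 ± 0.815 on the log2 scale, had the smallest edgeR adjusted p, 0.0615, and no member was called. In the fit without WT 3 and 4 the female WT group was female WT 1 and female WT 2, and female WT 2 was among the 3 lowest libraries for Duox2, Duoxa2, Nox1, Saa1 and Ltf.

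The low values of these genes fell on the same few libraries. Male Slfn3KO 1 was among the 3 lowest of the 16 libraries for 9 of the 10 genes and the lowest for 6 of them, with Card9 as the exception. Male WT 4 was among the 3 lowest for 7 genes and female WT 2 for 5. Reg3g and Reg3b, which encode secreted lectins that kill Gram-positive bacteria or keep bacteria off the epithelium, were lowest in the same 3 libraries. Reg3g was at 1235 CPM in male Slfn3KO 1, 1057 CPM in female WT 2 and 2009 CPM in male WT 4, and at 3735 to 18550 CPM in the other 13. The same 3 libraries had the highest sums of 7 ileum enterocyte markers, at 16412, 19669 and 17235 CPM in that order. Most of each sum was Fabp6, at 12460, 15725 and 12881 CPM. Slc10a2, of the same list, was at 165, 174 and 249 CPM there, within its range of 51.7 to 469 CPM over all 16 libraries. Their sums of the 9 epithelial markers, 15668, 17816 and 21316 CPM, were below the 24819 CPM of female WT 1. The part of enterocyte content in these low levels was not tested. These 3 libraries are of both genotypes and both labelled sexes.

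Duox2 and Duoxa2 followed each other across the 16 libraries with a Pearson's r of 0.990 and a Spearman's rho of 0.926 in log2 CPM (permutation p = 1e-05 for both, the smallest that 100000 permutations can give, adjusted p = 0.00012 over 12 relations). The r was 0.909 without the 2 libraries farthest from the median, 0.989 within WT, 0.992 within Slfn3KO and 0.993 without WT 3 and 4. By the same measure, as a description, the genes most like Duox2 after Duoxa2 were AA467197, at r = 0.984, and Upp1, at r = 0.967, among tested genes with a mean of at least 5 CPM. Those most like Duoxa2 after Duox2 were the same pair, at r = 0.969 and 0.960.

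Saa1 and Saa2 were related less closely, with r = 0.793 (permutation p = 0.00031, adjusted p = 0.00186) and rho = 0.805 (permutation p = 0.00046, adjusted p = 0.00276). Without the 2 farthest libraries r was 0.837. It was 0.862 within WT and 0.773 within Slfn3KO, where the adjusted exact permutation p were 0.0320 and 0.0901, and it was 0.673 without WT 3 and 4 (adjusted permutation p = 0.104). Saa2 rests on few counts in all of these.

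A score of Reg3b and Reg3g, the mean of their log2 CPM, was chosen after the values were seen and compared with each of the 10 genes. The permutation p-values with this score, adjusted over 10 relations, take no account of that choice and serve as a description only. Saa1 followed it most closely, with r = 0.935 (permutation p = 1e-05, the smallest possible, adjusted p = 5e-05 over 10 relations) and rho = 0.853 (permutation p = 9e-05, adjusted p = 0.000333). Its r was 0.881 without the 2 farthest libraries, 0.915 within WT, 0.968 within Slfn3KO and 0.947 without WT 3 and 4. Within WT, r fell to 0.449 once the 2 farthest of those 8 libraries were left out. Of all 16 libraries, the 2 farthest were female WT 2 and male Slfn3KO 1, with scores of 10.5 and 10.9. Male WT 4, also low at 11.5, stayed in for every gene.

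Ltf had r = 0.910 with that score (permutation p = 1e-05, adjusted p = 5e-05) and rho = 0.897 (permutation p = 1e-05, adjusted p = 0.0001). Without the 2 farthest libraries r was 0.829, and it was 0.907 within WT, 0.960 within Slfn3KO and 0.940 without WT 3 and 4. Within WT it was 0.542 once the 2 farthest of the 8 libraries were left out. The r of Lcn2 was 0.800 (permutation p = 0.0003, adjusted p = 0.000775), its rho 0.844 (permutation p = 0.0001, adjusted p = 0.000333) and its r without the 2 farthest libraries 0.882. Within WT it was 0.762, or 0.599 without the 2 farthest, within Slfn3KO 0.861 and without WT 3 and 4 it was 0.769.

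Il18 had r = 0.758 (permutation p = 0.0007, adjusted p = 0.0014), rho = 0.818 (permutation p = 0.0002, adjusted p = 0.0005) and r = 0.743 without the 2 farthest libraries. It was 0.813 within WT, 0.815 within Slfn3KO and 0.737 without WT 3 and 4. Nox1 had r = 0.771 (permutation p = 0.00093, adjusted p = 0.00155), rho = 0.70 (permutation p = 0.00326, adjusted p = 0.00543) and r = 0.660 without the 2 farthest libraries. For Nox1 it was 0.777 within WT, 0.891 within Slfn3KO and 0.785 without WT 3 and 4. Within WT, leaving out the 2 farthest libraries lowered the r of Nox1 from 0.777 to 0.345 and that of Il18 from 0.813 to 0.742.

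Saa3 had r = 0.722 (permutation p = 0.00182, adjusted p = 0.00227), rho = 0.706 (permutation p = 0.00322, adjusted p = 0.00543) and r = 0.724 without the 2 farthest libraries, with 0.607 within WT, 0.897 within Slfn3KO and 0.659 without WT 3 and 4. Saa2 had r = 0.620 (permutation p = 0.0108, adjusted p = 0.0120), rho = 0.596 (permutation p = 0.0175, adjusted p = 0.0249) and r = 0.630 without the 2 farthest libraries, with 0.609 within WT, 0.692 within Slfn3KO and 0.578 without WT 3 and 4. Within WT these became 0.248 for Saa3 and 0.214 for Saa2 without the 2 farthest libraries.

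For the oxidase pair the relation with Reg3b and Reg3g changed sign within each genotype without the 2 farthest libraries, which left 6. In WT those left out were female WT 2 and male WT 4. In Slfn3KO they were male Slfn3KO 1, with a score of 10.9, and female Slfn3KO 4, with 14.7, the low and high ends. Duox2 had r = 0.795 (permutation p = 0.00031, adjusted p = 0.000775) and rho = 0.568 (permutation p = 0.0242, adjusted p = 0.0303), and r was 0.541 without the 2 farthest libraries. Within WT its r of 0.889 became -0.45, and within Slfn3KO its r of 0.746 became -0.68, once the 2 farthest libraries of that genotype were left out. Duoxa2 had r = 0.747 (permutation p = 0.00151, adjusted p = 0.00216), rho = 0.479 (permutation p = 0.0624, adjusted p = 0.0693) and r = 0.352 without the 2 farthest libraries. Its r within WT went from 0.890 to -0.35 and within Slfn3KO from 0.671 to -0.82 in the same way. Without WT 3 and 4 the r of Duox2 was 0.821 and that of Duoxa2 0.776.

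Card9 followed the other 9 genes less closely over all 16 libraries. Its r with them, as a description over 16 libraries, ran from -0.09 to 0.520 with a median of 0.310, whereas the 36 pairs among the other 9 genes ran from 0.362 to 0.990 with a median of 0.707. With the Reg3b and Reg3g score its r was 0.152 (permutation p = 0.571, adjusted p = 0.571) and its rho 0.362 (permutation p = 0.169, adjusted p = 0.169). That r was 0.305 without the 2 farthest libraries, -0.16 within WT, 0.624 within Slfn3KO and 0.071 without WT 3 and 4. Within Slfn3KO, however, rho was 0.857 (exact permutation p = 0.0107, adjusted p = 0.0179) and r was 0.909 without the 2 farthest libraries. The r of 0.624 itself had an exact permutation p of 0.0952 (adjusted p = 0.103). Rank and r thus differed among the Slfn3KO mice. These p-values too are a description only, since the score was chosen after the values were seen.

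With the mean log2 CPM of the 10 B cell and follicle markers, Card9 had r = 0.549 (permutation p = 0.0299, adjusted p = 0.120) and rho = 0.591 (permutation p = 0.0185, adjusted p = 0.0740), and r = 0.467 without the 2 farthest libraries. Within WT r was 0.852 (exact permutation p = 0.00841, adjusted p = 0.0336), within Slfn3KO it was -0.25 (exact permutation p = 0.544) and without WT 3 and 4 it was 0.028 (permutation p = 0.930). Among these subsets the relation thus passed the threshold in WT alone, where the 4 libraries rich in follicle RNA were 4 of the 8 points. The other 9 genes had r between -0.0034 and 0.405 with the follicle markers, none of them with an adjusted permutation p under 0.357.

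**Figure D3:**
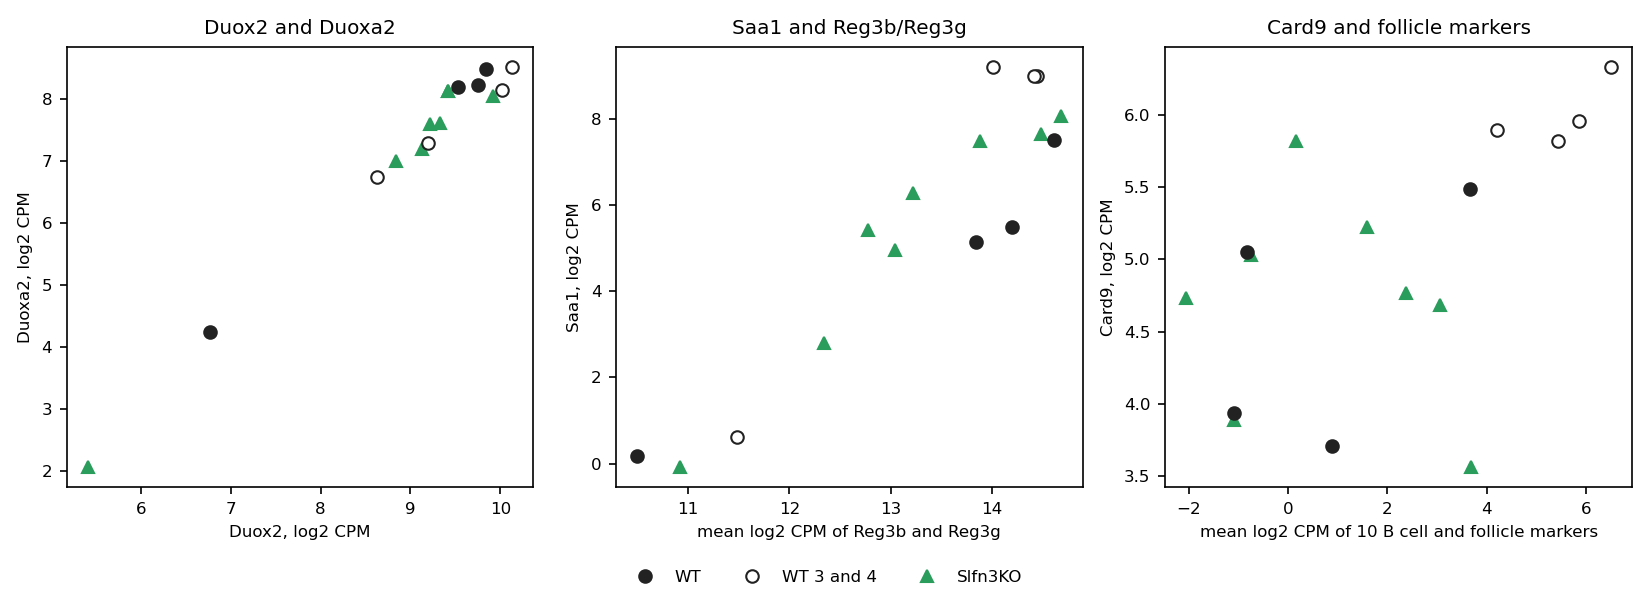
Level of Duoxa2 against Duox2, of Saa1 against the mean of Reg3b and Reg3g, and of Card9 against the mean of 10 B cell and follicle markers, all in log2 CPM, with 1 point per library, circles for WT (open for WT 3 and 4) and triangles for Slfn3KO. The first 2 relations, with r of 0.990 and 0.935, run through both genotypes, and in the third the 4 open circles sit at the upper right and the other 12 points have r = 0.028.

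The 3 tested genes of at least 5 CPM that were most like each of the other members, by r over 16 libraries and as a description only, are given next. For Saa1 they were Fut2 (0.950), the fucosyltransferase of the epithelial surface, Prss27 (0.944) and Reg3g (0.937). For Ltf they were Arl1 (0.950), Hsd17b12 (0.945) and Reg3g (0.923), and for Lcn2 they were Atp1b3 (0.887), Prim2 (0.887) and Dmbt1 (0.876), the last a secreted mucosal scavenger receptor. Card9 was most like Lpcat4 (0.950), Slc25a48 (0.927) and Slc13a1 (0.918). For Nox1 they were Klhl5 (0.937), Cd177 (0.923) and Pla2g5 (0.905), for Saa3 Sept11 (0.920), Arhgef10l (0.916) and Isy1 (0.903), for Saa2 Aim2 (0.865), Ly6e (0.846) and Tor3a (0.842), and for Il18 Serp1 (0.829), Sqle (0.826) and Plet1 (0.817).

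The other genes of the same pathways were followed as 6 lists, and no gene of any list was called at the adjusted threshold. Among other NADPH oxidase genes and partners, 10 of 12 were tested, with 1 higher and 4 lower at an unadjusted p under 0.05 and a median log2 fold change of -0.14, beside 7.10% lower and 4.84% higher among all tested genes. The 4 lower genes were Ncf4, Cybb, Ncf1 and Rac2, subunits of the phagocyte oxidase, of which Ncf4 had the most negative change, -1.75 ± 0.539 (edgeR adjusted p = 0.327), and -0.10 without WT 3 and 4. The other 3 of these went from -1.59 to 0.18 for Cybb, from -1.45 to -0.20 for Ncf1 and from -1.29 to -0.25 for Rac2 without those 4 libraries. The most positive change was that of Noxa1, the activator of NOX1, at 0.44 ± 0.232 (edgeR adjusted p = 0.470) and 0.40 without WT 3 and 4. Noxo1, the organiser of NOX1, was the 1 higher gene at the unadjusted level, with 78.0 CPM at the WT median and 95.9 at the Slfn3KO median and a log2 fold change of 0.25, or 0.22 without WT 3 and 4. Duox1 had a change of -0.04 ± 0.526, or 0.51 without WT 3 and 4, and Duoxa1 and Nox4 did not pass the filter. Cybb, Ncf1, Rac2, Noxo1 and Duox1, and of the lists that follow Il22, Il17ra, Jak1, Casp1 and Txnrd1, were named after their values were seen.

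In the interleukin-22 and interleukin-17 list, 13 of 18 genes were tested, with 0 higher and 3 lower at the unadjusted level and a median of -0.23, beside the same 7.10% and 4.84% of all tested genes lower and higher. The most negative was Il22ra2, which encodes the soluble binding protein of interleukin-22, at -1.55 ± 0.570 (edgeR adjusted p = 0.333) and 0.09 without WT 3 and 4, and the least negative was Il17rc at -0.03 ± 0.111, or -0.16 without WT 3 and 4. The other 2 lower genes were Il17ra, at -0.31 and -0.06 with and without WT 3 and 4, and Jak1, at -0.23 and -0.11. The cytokine genes Il22, Il17a, Il17f and Il23a and the receptor gene Il23r had too few counts to be tested, with Il22 at 0 in 6 libraries and at most 0.612 CPM.

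Of the Card9 signalling genes, 9 of 11 were tested, with 0 higher and 1 lower at the unadjusted level and a median of -0.22. The lower gene was Syk, the kinase above CARD9, at -0.81 ± 0.361 (edgeR adjusted p = 0.389) and 0.06 without WT 3 and 4, and the 1 positive change was that of the receptor gene Clec4n at 0.03 ± 0.214, or 0.24 without WT 3 and 4. In the inflammasome and interleukin-18 list, 12 of 13 were tested, with 0 in either direction and a median of -0.11, from Il1b at -0.72 ± 0.393 to the adaptor gene Pycard at 0.25 ± 0.169, which were 0.09 and 0.05 without WT 3 and 4. Casp1, which cleaves the interleukin-18 precursor, had 203 CPM at the WT median and 222 at the Slfn3KO median.

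Of the other acute-phase and metal-binding genes, 8 of 14 were tested, with 0 higher and 1 lower and a median of -0.32. The lower gene was Lyz2, a lysozyme gene of macrophages, at -1.12 ± 0.493 (edgeR adjusted p = 0.385) and 0.16 without WT 3 and 4. Slc22a17, the lipocalin-2 receptor gene, had the most positive change, 0.37 ± 0.193, or 0.39 without WT 3 and 4. The liver acute-phase genes Saa4, Hp, Orm1 and Hpx were among those with too few counts to test, and the hepatocyte markers summed to 2.82 to 18.5 CPM. All 13 peroxide-removing genes were tested, with 0 higher and 1 lower and a median of 0.08, from Prdx5 at -0.17 ± 0.166 to Prdx4 at 0.35 ± 0.230, and the lower gene was Txnrd1, a thioredoxin reductase, at -0.17 ± 0.0793. With WT 3 and 4 left out these were -0.38 for Prdx5, 0.24 for Prdx4 and -0.25 for Txnrd1. The list medians without WT 3 and 4 were 0.17 for the oxidase genes, -0.16 for the interleukin-22 and interleukin-17 genes, 0.03 for Card9 signalling, 0.06 for the inflammasome, 0.16 for the acute-phase genes and -0.07 for peroxide removal.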

How the data were processed

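Total RNA of ileum mucosa was prepared with stranded libraries and sequenced by the authors as single reads of 50 bases over 2 lanes without molecular identifiers. Per the methods of the study, reads were trimmed with cutadapt and aligned to mm10 with STAR. The deposited table holds raw counts per gene, not normalized, with 1 column per mouse and the exon length of each gene. The file header and the submitters' processing notes name featureCounts (version 1.4.6 in the notes), with reverse-stranded counting in the header, whereas the methods name HTSeq. The notes also name DESeq2 1.22.2, whose output was not used here. Symbols matched 45143 of 46078 identifiers.

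Libraries were grouped by the labelled sex and genotype. Counts were fitted in edgeR 4.0.16 (R 4.3.3) with filterByExpr, TMM factors and the robust quasi-likelihood F test, with labelled sex as covariate. The Benjamini-Hochberg adjustment ran over all tested genes. Genes were called where the adjusted p was under 0.05 and levels differed 1.5-fold or more. The standard error was taken as the size of the log2 fold change over the root of F. Levels are CPM with TMM factors, and log2 CPM used a prior count of 2. Totals of 20823279 to 30813117 counts put the floor of 3 counts at 0.10 to 0.151 CPM. Nothing in the sources used here says which mice shared a litter or a day, so p-values measure the spread between single mice.

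Correlations were tested with 100000 permutations (all permutations within 8 libraries) in numpy 2.4.6, and single genes by exact permutation of 8 against 8 libraries. Promoters were compared with Biopython 1.88. Alternatives were RLE factors, no filter, at least 10 counts in every library, DESeq2 1.42.0, other thresholds, no covariate, each labelled sex alone, omission of WT numbers 3 and 4, a replicate block and leaving out each library. The pooled edgeR fit was tested on simulated counts, and the other steps were not. All 10 members were named, together with the most positive and most negative change of each pathway list and the 3 genes most like each member. Members, lists and tests were chosen with earlier results of these data known, and the Reg3b and Reg3g score and the fits of 1 labelled sex without WT 3 and 4 were added after the data were seen.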

Additional observations from a re-analysis of the deposited data

Results flagged for a closer look

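In 4 of 40 tests, each of 1 gene in 1 group of 4 libraries, a single library lay far from the other 3, with a gap to its neighbour above 0.829 of the range of the group in log2 CPM. Chance flags about 1 in 20 such groups. Male Slfn3KO 1 was low for Duox2, with a gap of 0.949 of the range, and for Duoxa2, with 0.912. Male WT 4 was low for Nox1, with 0.983, and for Ltf, with 0.838.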

How the results depend on the processing

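No alternative called any of the 10 genes at the adjusted threshold. The number of genes called between genotypes, 0, became 54 with DESeq2 and 984 at an unadjusted p with a 1.5-fold change, and it was 0 to 0 over the fits that left out each library in turn. For the difference between the labelled sexes, 0 genes became 19 with DESeq2 and 359 without WT 3 and 4, and 0 to 0 with each library left out. Of the 10 genes, 0 had an unadjusted p under 0.05 there (11.1% of all genes), which became 1 without female Slfn3KO 3 (13.7%), male Slfn3KO 3 (13.6%), female WT 3 (19.7%) or female WT 4 (9.48%), and 2 without male WT 4 (18.1%). The fit with the replicate block by labelled sex and number called 0 genes, gave Saa1 a log2 fold change of -0.57 and changed no call. Deviations of same-numbered libraries correlated at 0.138 to 0.518 in the 4 male pairs and at -0.36 to 0.143 in the 4 female pairs, so the numbers were not taken as pairs over all 8.

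Direction turned in several fits. Without WT 3 and 4, Saa3 was at 0.34 and Card9 at 0.042. In labelled males alone Nox1 was at -0.27, and in labelled females alone Saa3 was at 0.017, Lcn2 at 0.25 and Ltf at 0.014. In labelled males without WT 3 and 4, a fit added after seeing the data, Nox1 was at -0.65, and in labelled females without them Duox2 was at 0.35, Saa1 at 3.32, Saa3 at 1.41, Lcn2 at 1.02, Ltf at 1.28, Card9 at 0.40 and Il18 at 0.10. Leaving out any 1 library reversed none of the 10, but moved Saa1 to -1.23 and Saa3 to -0.05 (male WT 3), Lcn2 to -0.35 (male WT 1) and Saa2 to -1.34 (female WT 3). Correlations with the follicle markers changed sign for Lcn2 with a prior count of 0.5 (0.016). Without WT 3 and 4 they did so for Saa1 (-0.21), Saa2 (-0.11), Saa3 (-0.016), Ltf (-0.22) and Il18 (-0.15). Within WT the sign changed for Duox2 (-0.084), Duoxa2 (-0.20), Nox1 (-0.13) and Ltf (-0.011), and within Slfn3KO for Lcn2 (0.284) and Card9 (-0.25). With Reg3b and Reg3g it changed for Card9 within WT (-0.16). The cause was not tested. Depth limited Saa2 and Lcn2, whose lowest libraries held 0 and 1 count.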
